A study of Mus musculus with 3 samples.

Results

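The tyrosine and dual-specificity phosphatases were followed on 3 arrays of dendritic cells (DC) from mouse spleen. Members were all probe sets annotated to a single gene whose symbol belongs to the Ptpn, Ptpr or Dusp series (Ptprcap, a CD45-associated protein, was not a member). This gave 58 genes, 16 of the Ptpn, 18 of the Ptpr and 24 of the Dusp series, out of 18193 genes in all. They were covered by 128 of 34945 single-gene probe sets. The cells came from healthy, untreated female C57bl/6 mice aged 6 to 8 weeks, with no treatment in any group. They were labelled Naïve PDC (plasmacytoid DC, pDC), Naïve CD11b+ CDC and Naïve CD8+ CDC (the 2 conventional subsets, here CD11b+ cDC and CD8+ cDC). T and B cells were removed with magnetic beads before the cells were sorted by flow cytometry, and cells or RNA of 5 to 8 mice were pooled per subset (which of them is not stated). Each subset had 1 array and no replicate, so no spread between samples, standard error or p-value could be given.

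Protein tyrosine phosphatases remove phosphate from tyrosine and so oppose the kinases that carry signals from antigen, Fc, cytokine and pattern recognition receptors. Receptor-type members (Ptpr) cross the membrane, while non-receptor members (Ptpn) are led to their targets by SH2, FERM, PDZ or proline-rich regions. Dual-specificity phosphatases (Dusp) also act on serine and threonine, and many of them switch off the MAP kinases ERK, JNK and p38. In leukocytes CD45 (Ptprc) keeps Src family kinases ready to act, and SHP-1 (Ptpn6) is drawn to inhibitory receptors. The LAR-type receptor Ptprs has been described as an inhibitory receptor of pDC.

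Subfamily members that shared their brightest or dimmest subset included the LAR-type pair Ptprf and Ptprs, both brightest in pDC, and the inducible pair Dusp1 and Dusp2, both dimmest in pDC. The sequences next to their transcription starts are shown because each pair moved together between pDC and the cDC. They are the 250 bases before each start, 5′ to 3′ along the gene, from the RefSeq promoter table (build GRCm38.p6), which held 23 of the 26 members described by value and lists a pair of starts for Ptprs. Capitals mark matches on either strand to GGGCGG (GC box), CACCTG (an E-box bound by E proteins), TGACGTCA (CRE), TGANTCA (AP-1 site) or GAGGAAGT (PU.1 site).
Ptprf (chr4:118291398-118291647, minus strand): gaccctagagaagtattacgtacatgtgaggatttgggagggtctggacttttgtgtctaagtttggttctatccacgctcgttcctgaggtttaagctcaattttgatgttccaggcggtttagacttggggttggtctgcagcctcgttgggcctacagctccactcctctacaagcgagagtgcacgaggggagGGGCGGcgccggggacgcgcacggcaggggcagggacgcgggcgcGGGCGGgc
Ptprs (chr17:56462222-56462471, minus strand): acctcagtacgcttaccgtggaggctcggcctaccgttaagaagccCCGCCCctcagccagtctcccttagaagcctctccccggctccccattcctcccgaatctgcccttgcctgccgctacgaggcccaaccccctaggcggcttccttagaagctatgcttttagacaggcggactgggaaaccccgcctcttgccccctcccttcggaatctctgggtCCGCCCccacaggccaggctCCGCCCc
Ptprs (chr17:56476481-56476730, minus strand): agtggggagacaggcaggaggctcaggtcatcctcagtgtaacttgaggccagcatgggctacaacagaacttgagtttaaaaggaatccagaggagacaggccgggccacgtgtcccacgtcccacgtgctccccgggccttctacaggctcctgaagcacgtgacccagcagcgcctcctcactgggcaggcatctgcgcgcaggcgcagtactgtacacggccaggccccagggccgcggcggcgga
Dusp1 (chr17:26508473-26508722, minus strand): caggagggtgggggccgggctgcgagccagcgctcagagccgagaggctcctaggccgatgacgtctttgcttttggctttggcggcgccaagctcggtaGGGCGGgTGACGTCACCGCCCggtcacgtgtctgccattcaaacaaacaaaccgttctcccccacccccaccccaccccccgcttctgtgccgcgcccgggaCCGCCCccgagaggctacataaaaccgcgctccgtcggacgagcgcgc
Dusp2 (chr2:127335909-127336158, plus strand): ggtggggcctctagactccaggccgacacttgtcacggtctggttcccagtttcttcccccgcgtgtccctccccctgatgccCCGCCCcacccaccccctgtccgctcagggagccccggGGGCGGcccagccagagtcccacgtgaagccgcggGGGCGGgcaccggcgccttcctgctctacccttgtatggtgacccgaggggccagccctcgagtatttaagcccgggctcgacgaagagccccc

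The capitals in Dusp1 hold a CRE, 143 to 136 bases before the start, lying between 2 GC boxes that it does not overlap. A CRE was found in 1.55% of the 32851 promoter windows of the table. The Dusp2 window held GC boxes and no CRE of these letters. The capitals of Ptprf and of the downstream Ptprs window, chr17:56462222-56462471, are all GC boxes, a motif of 32.7% of all windows, and the other Ptprs window held no match. E-box letters were in 17.2% of all windows and in 1 of the 7 called members that were brightest in pDC and had a window (Dusp7). They were in 3 of 8 brightest in CD11b+ cDC (Ptpn3, Ptpn6 and Ptpre) and 0 of 6 brightest in CD8+ cDC. GC boxes were in 5 of 7, 4 of 8 and 6 of 6 of these groups. A member counted if any of its windows held the letters, and some, such as Ptpre, had several. The shares over the table are per window, so the counts cannot be set directly against them. AP-1 letters (6.75% of windows) were found among these called members in Ptpre alone, and PU.1 letters (2.44%) in 0 of the 21. A match is a description of the letters and shows no binding.

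A signal below is a deposited intensity, for each gene that of its probe set brightest on average over the arrays (log2). Signals up to a background level of 111, set on chemosensory receptor genes that spleen should not express, count as not above background. A call between arrays needed a ratio of 2-fold and a brighter signal above background. Folds against a signal under that level are written as at least. Siglech, a pDC lectin gene, was above background on the pDC array alone, Itgam (CD11b) on the CD11b+ cDC array alone, and Xcr1 on the CD8+ cDC array alone. Other markers were shared: of the CD11b+ cDC list Cd209a and Mgl2 were brighter in pDC (21544 and 778) than in CD11b+ cDC (8650 and 93.7), and of the CD8+ cDC list Cd8a and Cadm1 gave 32230.5 and 13334 in pDC. Of 7 T cell markers, 2 were above background in pDC (Cd28 at 4830 and Lat at 444) and Lat alone in each cDC, with Cd3e, Cd3d and Cd3g below it on all 3 arrays. Of 6 B cell markers, 2 were above background in pDC, 3 in CD11b+ and 2 in CD8+ cDC, with summed signals of 10577, 15774 and 19775. Ms4a1 reached 19147 in CD8+ cDC and Cd79b 10103 in pDC, while Cd79a and Pax5 were below background on all 3 arrays. Of 5 NK cell markers, 2 were above background on each array, Klrd1 and Gzma. Klrd1 gave 96243 in pDC, 83389 in CD11b+ and 4413 in CD8+ cDC, and Gzma 338, 695 and 336. Ncr1, Prf1 and Eomes were below background on all 3 arrays. The part of such cells in the phosphatase values was not tested. The ratio of 3′ to 5′ control probe sets of Actb was 5.71 in pDC, 2.91 in CD11b+ and 4.08 in CD8+ cDC, and that of Gapdh 16.2, 9.68 and 17.6. The hybridization spike-ins were 0.36 (mean log2) brighter in pDC than in CD11b+ cDC, 0.64 dimmer in pDC than in CD8+ cDC and 0.99 brighter in CD8+ than in CD11b+ cDC. When the arrays were put on the scale of these spike-ins, the median log2 difference over all genes, near 0 as deposited, became -0.30 (pDC minus CD11b+ cDC), 0.65 (pDC minus CD8+ cDC) and -0.95 (CD8+ minus CD11b+ cDC). Every difference here is therefore relative to that median, and calls that spike-in scaling ends are named where they occur.

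Of the 58 phosphatase genes, 36 were above background on at least 1 array (62.1%, against 60.5% of all genes) and 33 on all 3. The numbers per array were 34 in pDC, 34 in CD11b+ and 35 in CD8+ cDC. In 23 of them at least 1 of the 3 pairs of arrays differed by 2-fold or more. These 23 were brightest in pDC for 8, in CD11b+ cDC for 9 and in CD8+ cDC for 6. The matching share and split over all genes are not given here, so these counts are description only. Shares for each pair follow below. A lead of 4-fold or more over both other arrays was found in pDC for 3 members, Ptprf, Ptprs and Dusp9 (and for 4.27% of the 11010 genes above background). In CD11b+ cDC it was 2 (Ptpro and Ptpn3; 2.02% of genes), and in CD8+ cDC 0 (2.43% of genes). With the spike-in scaling the CD11b+ cDC number was 4.

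**Figure D1:**
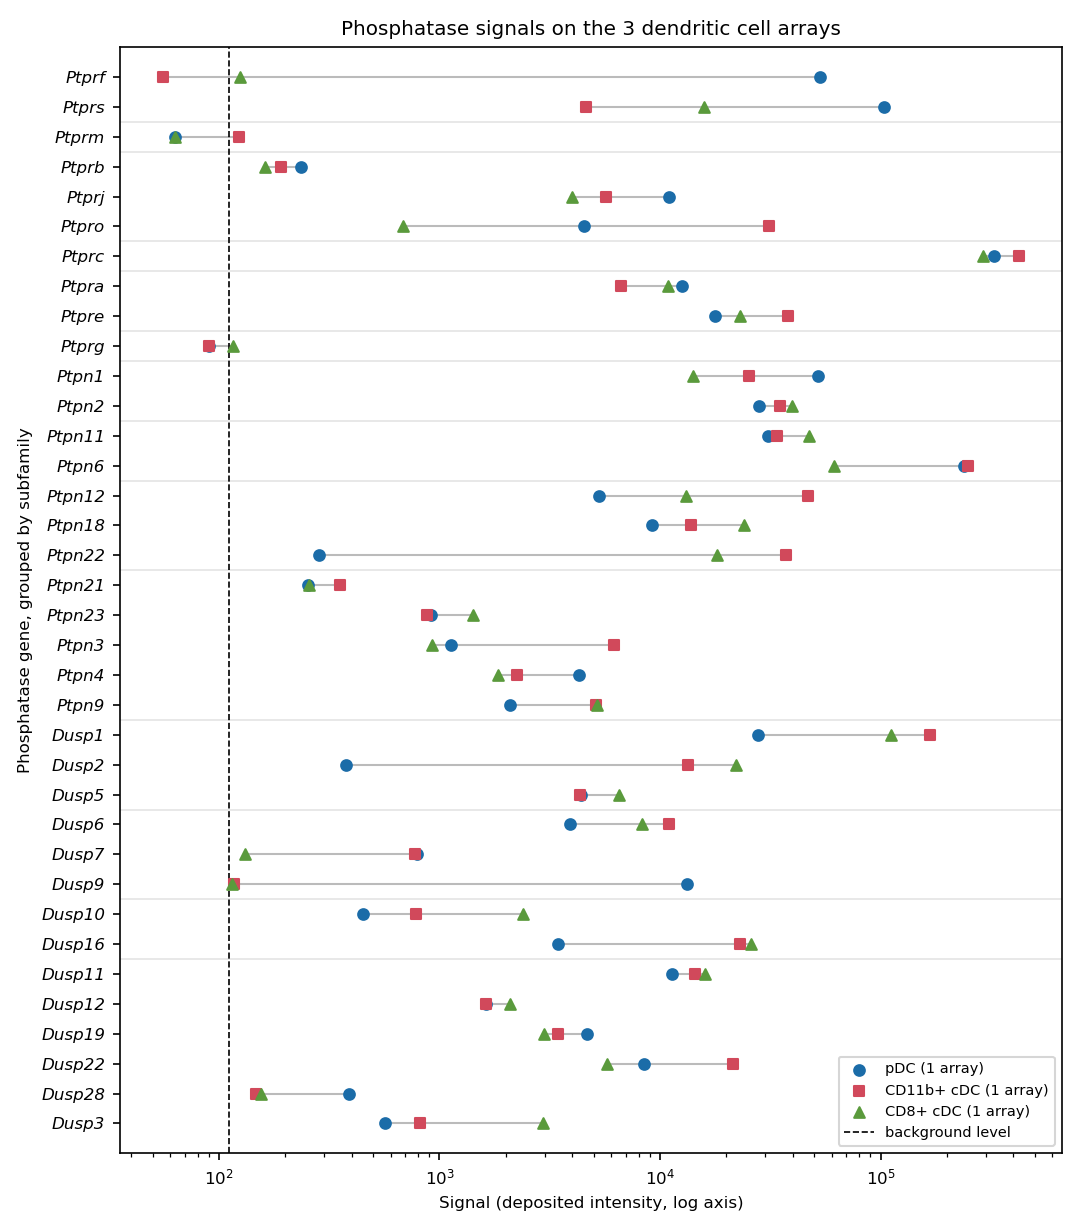
Signal (deposited intensity, log axis) of the 36 phosphatase genes above background on any array, 1 point per array, with genes grouped by subfamily and the dashed line at the background level of 111. Ptprf and Dusp9 stand far to the right in pDC alone, and Ptpn22 and Dusp2 far to the left in pDC alone.

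The phosphatases that set plasmacytoid cells apart from the CD11b+ subset were mainly low ones. Of 35 members above background in this pair, pDC had 5 higher (Ptprf, Dusp9, Ptprs, Dusp28 and Ptpn1) and 11 lower (Ptpn22, Dusp2, Ptpn12, Ptpro, Dusp16, Dusp1, Ptpn3, Dusp6, Dusp22, Ptpn9 and Ptpre). The share higher was 14.3%, against 15.0% of all 10792 genes above background, and the share lower 31.4% against 14.3%. The median log2 difference was -0.32, beside 0.01 over all genes. With spike-in scaling 4 were higher and 12 lower.

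Between pDC and CD8+ cDC, 10 of 35 members were higher in pDC (28.6%, against 16% of 10822 genes) and 10 lower (28.6%, against 14.8%). The higher ones were Ptprf, Dusp9, Ptpro, Ptprs, Dusp7, Ptpn6, Ptpn1, Ptprj, Dusp28 and Ptpn4, and the lower ones Ptpn22, Dusp2, Dusp16, Dusp10, Dusp3, Dusp1, Ptpn18, Ptpn12, Ptpn9 and Dusp6. The median was -0.06, beside 0.00 over all genes, and spike-in scaling gave 12 higher and 6 lower. Among receptors 4 were higher and 0 lower, and among dual-specificity phosphatases 3 higher and 6 lower. This comparison shares the pDC array with the one before.

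On the deposited scale the conventional subsets differed at 10 members, fewer than in either pair with pDC. Of 36 above background, 3 were higher in CD8+ than in CD11b+ cDC (8.33%, against 9.84% of 10708 genes), namely Dusp3, Ptprs and Dusp10. Lower in CD8+ cDC were 7 (19.4%, against 10.3%), namely Ptpro, Ptpn3, Dusp7, Ptpn6, Dusp22, Ptpn12 and Ptpn22. The median was -0.09, beside 0.01 over all genes. With spike-in scaling 0 were higher and 16 lower, so both the number and the split rest on how the arrays are scaled.

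**Figure D2:**
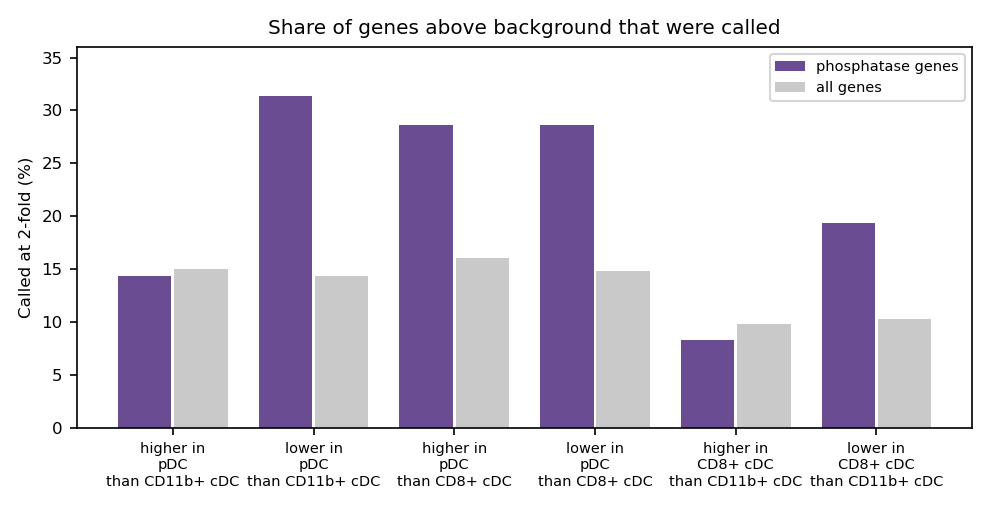
Share (%) of phosphatase genes (purple) and of all genes (grey) above background that were called at 2-fold, for each pair of arrays and direction, on the deposited scale. The phosphatase bars for lower in pDC reach 31.4% against CD11b+ cDC and 28.6% against CD8+ cDC, with 14.3% and 14.8% of all genes.

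The LAR-type receptors, large adhesion-like phosphatases that bind proteoglycans, were higher in pDC for both of the members above background. Ptprf gave 53122 in pDC, 55.5 in CD11b+ and 125 in CD8+ cDC. It was thus high in pDC and at or next to background in both conventional subsets, at least 478-fold and 425-fold lower there. Its other 2 probe sets, at 20726 and 815 in pDC, were below background in both cDC, and gave at least 186-fold and at least 7.33-fold. Ptprs gave 103174 in pDC, 4612 in CD11b+ and 15771 in CD8+ cDC. All 3 subsets were above background, in the order pDC, CD8+ cDC, CD11b+ cDC, with pDC 22.4-fold and 6.54-fold above the others. The 3.42-fold difference between the conventional subsets fell below 2-fold with spike-in scaling. These values rest on 1 probe set, since the other 3 of Ptprs lay below background on every array. Averaging all 4 ended the call against CD8+ cDC, at 0.69 on the log2 scale, and left 1.14 against CD11b+ cDC. Ptprd, the remaining LAR-type gene, was below background at all of its probe sets.

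Among endothelial markers, Cdh5 and Kdr were also highest in pDC, at 11542 and 18604, against 74.0 and 397 in CD11b+ and 75.0 and 112 in CD8+ cDC. Plvap and Egfl7 were not higher in pDC than in CD11b+ cDC by the 2-fold rule. Of 6 endothelial markers, 4 were above background in pDC, 3 in CD11b+ and 2 in CD8+ cDC, with summed signals of 31186, 1559 and 996. Tek and Emcn were below background on all 3 arrays, and the endothelial phosphatase Ptprb gave 235 in pDC, 190.5 in CD11b+ and 161 in CD8+ cDC. Their part in the result was not tested. As each array held RNA of many sorted cells, fewer cells with a transcript and less of it per cell cannot be told apart.

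Genes of direct or indirect partners of LAR-type receptors were read as a list of 16 ligands and partners. In pDC 11 of them were above background, and 9 in each cDC. Against CD11b+ cDC 3 were higher in pDC and 1 lower of 11, with a median log2 difference of 0.66 beside 0.01 over all genes. Against CD8+ cDC 4 were higher and 4 lower (median 0.06, all genes 0.00). Between the cDC 4 were higher in CD8+ cDC and 1 lower (median 0.32, or -0.67 with spike-in scaling, where it was 3 and 3). There the median over all genes was 0.01, or -0.95 with spike-in scaling. Shares called over all genes were 15.0% higher and 14.3% lower, 16% and 14.8%, and 9.84% and 10.3%, in the same order of pairs. The heparan sulfate proteoglycan gene Sdc4 gave 50747 in pDC, 410.5 in CD11b+ and 196 in CD8+ cDC, which is 124-fold and 259-fold. Sdc1 and Sdc2 were above background in pDC alone, at least 30.2-fold and at least 16.8-fold higher. Sdc3, in contrast, was brightest in CD8+ cDC at 24248, with 3573 in pDC and 5730.4 in CD11b+ cDC. The intracellular liprins of the list did not share a direction. The beta liprin genes Ppfibp2 and Ppfibp1 were 32.1-fold and 3.14-fold lower in pDC than in CD8+ cDC. The alpha liprin gene Ppfia4 was 2.83-fold higher in pDC.

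Among receptors with fibronectin repeats (the R3 group) 3 of 4 members were above background. Ptpro, a receptor known from podocytes and B cells, gave 4516 in pDC, 31058 in CD11b+ and 687 in CD8+ cDC. All 3 subsets were apart, with CD11b+ cDC 6.88-fold above pDC and 45.2-fold above CD8+ cDC, and pDC 6.58-fold above CD8+ cDC. The second Ptpro probe set was above background in CD11b+ cDC alone, at 650.2. Ptprj (CD148), which acts on Src kinases beside CD45, gave 10998 in pDC, 5689 in CD11b+ and 4006 in CD8+ cDC. It was 2.75-fold higher in pDC than in CD8+ cDC and 1.93-fold higher than in CD11b+ cDC, just short of a call. Its second probe set above background differed by only 1.37-fold and 1.21-fold. Ptprb reached 1.46-fold at most, and Ptprv lay below background.

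CD45 itself did not reach 2-fold in any pair on the deposited scale. Ptprc gave 327983 in pDC, 425232 in CD11b+ and 291847 in CD8+ cDC, at most 1.46-fold apart, but with spike-in scaling it was 2.90-fold lower in CD8+ than in CD11b+ cDC. The dimmer Ptprc probe set read 4885, 7971 and 3785, where CD8+ cDC lay 2.11-fold below CD11b+ cDC. Its B220 isoform is a common sort marker of pDC, and the sort markers of pDC are not stated in the sources used here. Ptpra and Ptpre are receptors with short outer parts. Ptpre gave 17764 in pDC, 38203 in CD11b+ and 23106 in CD8+ cDC, and was 2.15-fold lower in pDC than in CD11b+ cDC, with 2.07-fold at its other probe set. Ptpra was dimmest in CD11b+ cDC at 6687, with 12521 in pDC and 10889 in CD8+ cDC, which missed the rule at 1.87-fold. Ptprm and Ptprg passed background by little and on 1 array each, at 124 in CD11b+ cDC and 116 in CD8+ cDC.

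The pair Ptpn1 and Ptpn2 encodes PTP1B and TC-PTP, which act on JAK kinases and on insulin and cytokine receptors. Ptpn1 gave 51799 in pDC, 25198 in CD11b+ and 14110.5 in CD8+ cDC. The order pDC, CD11b+ cDC, CD8+ cDC also held at its second probe set (6422, 3539 and 1727). The 3.67-fold excess of pDC over CD8+ cDC was met by 3.72-fold at that probe set. The 2.06-fold excess over CD11b+ cDC was not: the second probe set gave 1.81-fold, and spike-in scaling left 0.68 on the log2 scale. Ptpn2 gave 28138 in pDC, 35057 in CD11b+ and 39570.5 in CD8+ cDC, at most 1.41-fold apart. A much dimmer Ptpn2 probe set, at 373 in pDC, was 2.55-fold and 4.76-fold lower there than in CD11b+ and CD8+ cDC.

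The SH2-domain phosphatases SHP-1 and SHP-2 behaved differently from each other. Ptpn6 (SHP-1), the phosphatase of inhibitory immune receptors, gave 238736 in pDC, 249710 in CD11b+ and 61224 in CD8+ cDC. CD8+ cDC stood apart as the low subset, 3.90-fold under pDC and 4.08-fold under CD11b+ cDC, while the other 2 were 1.05-fold apart. The second probe set, a dimmer one, gave 2.66-fold and 2.65-fold. Ptpn11 (SHP-2), which supports ERK signalling from growth factor receptors, gave 30838 in pDC, 33828 in CD11b+ and 47212 in CD8+ cDC. Its highest subset was CD8+ cDC and its largest ratio 1.53-fold.

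Receptors that recruit SHP-1 or SHP-2 through inhibitory motifs were read as a list of 16 genes, of which 13 were matched and 11 were above background on every array. Between the conventional subsets 9 of the 11 were lower in CD8+ cDC and 1 higher (median -3.15, all genes 0.01), the same side as Ptpn6. Clec4a2 (the lectin DCIR) was 75.4-fold, Cd72 55.7-fold, Cd22 52.6-fold and Lair1 35.1-fold lower in CD8+ than in CD11b+ cDC. Btla was the 1 higher, at 273695 in CD8+ cDC, 27615 in CD11b+ cDC and 25719.9 in pDC. Against CD8+ cDC pDC had 6 higher and 1 lower (median 1.30), led by Lair1 at 248-fold, Cd72 at 97.7-fold, Ceacam1 at 85.3-fold and Sirpa at 14.5-fold. Against CD11b+ cDC pDC had 2 higher, Ceacam1 (19.8-fold) and Lair1 (7.05-fold), and 5 lower (median -0.98), with Clec4a2 at 108-fold and Cd22 at 95.9-fold. Over all genes 16% were higher and 14.8% lower in pDC than in CD8+ cDC (median 0.00). Against CD11b+ cDC it was 15.0% and 14.3% (median 0.01). Between the cDC 9.84% of all genes were higher and 10.3% lower in CD8+ cDC. Sirpa was also on the list of CD11b+ cDC markers.

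The PEST-type phosphatases, which act on Src kinases, Cas and cytoskeletal adaptors through a proline-rich tail, were low in pDC: all 3 were called lower than in CD8+ cDC, and Ptpn22 and Ptpn12 also lower than in CD11b+ cDC. Ptpn22 (LYP or PEP), a brake on antigen receptor signalling that partners the kinase CSK, gave 284 in pDC, 37446 in CD11b+ and 18208 in CD8+ cDC. Only pDC was low, 132-fold under CD11b+ cDC and 64.2-fold under CD8+ cDC, and CD11b+ cDC was 2.06-fold above CD8+ cDC. A single probe set measured Ptpn22. Its pDC signal lay under the higher background level of 412 tried below. With that level pDC was still lower, at -6.51 (against CD11b+ cDC) and -5.47 (against CD8+ cDC) on the log2 scale. Ptpn12 (PTP-PEST), which controls adhesion and migration, gave 5276 in pDC, 47052 in CD11b+ and 13153 in CD8+ cDC. The 3 subsets were apart, with CD11b+ cDC 8.92-fold above pDC and 3.58-fold above CD8+ cDC. All 4 probe sets of Ptpn12 called both of these differences, from 6.84-fold to 8.92-fold and from 3.18-fold to 5.60-fold. The 2.49-fold difference between pDC and CD8+ cDC was met by 2 of the other 3 and was under 2-fold with spike-in scaling. Ptpn18 gave 9166 in pDC, 13894 in CD11b+ and 24142 in CD8+ cDC. Its 2.63-fold deficit in pDC against CD8+ cDC was not met by the second probe set (1.19-fold) or with spike-in scaling.

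Of the partners of PEST-type phosphatases and CD45, 12 were listed and 9 matched, all above background. Pstpip2, an adaptor of the family that binds PTP-PEST, followed Ptpn22, at 116 in pDC, 4296 in CD11b+ and 4229 in CD8+ cDC. It was 37.0-fold and 36.5-fold lower in pDC, where it lay next to background. The Src kinase gene Fyn went the other way, with 124703 in pDC, 9954 in CD11b+ and 13660 in CD8+ cDC. Pag1, the membrane anchor of CSK, was 3.80-fold and 20.5-fold higher in pDC, and Ptprcap 16.2-fold and 54.7-fold. Csk did not differ by 2-fold between pDC and either cDC and was 2.34-fold lower in CD8+ than in CD11b+ cDC. Pstpip1, of the same family as Pstpip2, did not reach 2-fold in any pair. It gave 7009.7 in pDC, 7242 in CD11b+ and 10997 in CD8+ cDC. As a list 3 were higher and 1 lower in pDC than in CD11b+ cDC, 4 higher and 1 lower against CD8+ cDC, and 4 lower with 0 higher in CD8+ than in CD11b+ cDC. The medians were 0.05, 0.66 and -0.09, the first turning to -0.30 with spike-in scaling. Over all genes the medians were 0.01, 0.00 and 0.01, and that of the first pair was also -0.30 with this scaling. Shares called over all genes were 15.0% higher and 14.3% lower, 16% and 14.8%, and 9.84% and 10.3%, in the same order.

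The larger cytosolic phosphatases had 5 of 8 members above background. Ptpn3, a FERM and PDZ domain phosphatase, gave 1126 in pDC, 6195 in CD11b+ and 929.8 in CD8+ cDC. CD11b+ cDC alone was high, 5.50-fold and 6.66-fold over the others. Ptpn4, its closest relative, gave 4301 in pDC, 2252 in CD11b+ and 1850 in CD8+ cDC. Its order differed from that of Ptpn3, with pDC 2.32-fold above CD8+ cDC, a difference of 1.35-fold at its dimmer probe set. Ptpn9, which sits on secretory vesicles, gave 2098 in pDC, 5118 in CD11b+ and 5170 in CD8+ cDC. It was lower in pDC, 2.44-fold and 2.46-fold, the latter under 2-fold with spike-in scaling. Ptpn21 and Ptpn23 stayed within 1.63-fold, except that with spike-in scaling Ptpn21 was 2.77-fold lower in CD8+ than in CD11b+ cDC.

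Among the inducible nuclear MAPK phosphatases, which are switched on by the kinases they end, 2 were low in pDC. Dusp1 (MKP-1), which limits p38 and JNK after Toll-like receptor signals, gave 27693 in pDC, 167310.1 in CD11b+ and 111055 in CD8+ cDC. It was above background throughout and 6.04-fold and 4.01-fold lower in pDC. Dusp2 (PAC-1), a phosphatase of activated leukocytes, gave 378 in pDC, 13440.1 in CD11b+ and 22022 in CD8+ cDC. pDC alone was low, 35.6-fold and 58.3-fold under the conventional subsets. With a background level of 412, which is above the pDC signal, these differences were -5.03 and -5.74 on the log2 scale. Dusp5, a nuclear ERK phosphatase, did not share this order: it gave 4364 in pDC, 4347 in CD11b+ and 6503 in CD8+ cDC. Dusp4 was below background on all arrays. All 4 genes had 1 probe set each, and the only CRE in the windows printed above was that of Dusp1.

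Immediate early genes, which are also induced by isolating cells, were mostly but not all lower in pDC, as Dusp1 and Dusp2 were. Of 14 listed, all above background on each array, 10 were lower and 2 higher in pDC than in CD11b+ cDC (median -3.58). Against CD8+ cDC 9 were lower and 2 higher in pDC (median -2.94). The shares called over all genes were 14.3% lower and 15.0% higher, then 14.8% and 16%, with medians of 0.01 and 0.00. Egr3, Atf3, Nr4a2 and Egr2 were 120.4-fold, 33.1-fold, 36.8-fold and 24.4-fold lower in pDC than in CD8+ cDC. Jun and Fosb were higher in pDC, 2.38-fold and 2.56-fold against CD11b+ cDC and 4.70-fold and 3.12-fold against CD8+ cDC. Fos gave 359684 in pDC, 389867 in CD11b+ and 435828 in CD8+ cDC. Neither Fos nor Btg2 reached 2-fold in either pair with pDC. The part of cell handling in the low Dusp1 and Dusp2 signals of pDC was not tested.

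The cytoplasmic ERK phosphatases showed 3 different orders. Dusp9 (MKP-4) gave 13286 in pDC, 117 in CD11b+ and 115 in CD8+ cDC. It was thus high in pDC and next to background in both cDC, 113-fold and 116-fold lower. The other 2 Dusp9 probe sets called the same differences, at 62.0-fold and at least 92.3-fold for one and at least 14.4-fold for each pair at the other. Dusp6 (MKP-3), a feedback target of ERK, gave 3895 in pDC, 11018 in CD11b+ and 8297 in CD8+ cDC. It was lower in pDC, 2.83-fold and 2.13-fold, the latter not with spike-in scaling. Dusp7 gave 788 in pDC, 776 in CD11b+ and 131 in CD8+ cDC, so that CD8+ cDC alone was low, 6.02-fold and 5.93-fold, though both calls ended (0.94 and -0.91 on the log2 scale) with a background level of 412. A second Dusp7 probe set gave at least 3.87-fold and at least 2.45-fold for these, and the last, at 128 in pDC, was next to background.

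Both JNK and p38 phosphatases above background were lower in pDC than in CD8+ cDC. Dusp16 (MKP-7) gave 3439 in pDC, 23008 in CD11b+ and 25968 in CD8+ cDC. pDC was the low subset by 6.69-fold and 7.55-fold, and the dimmer probe set gave 4.47-fold and 7.47-fold. Dusp10 (MKP-5) gave 451 in pDC, 787 in CD11b+ and 2401 in CD8+ cDC. CD8+ cDC was the high subset, 5.32-fold over pDC and 3.05-fold over CD11b+ cDC, the latter not with spike-in scaling. Over the 8 MAPK phosphatases above background, 1 was higher and 4 lower in pDC than in CD11b+ cDC, and 2 were higher and 5 lower than in CD8+ cDC. Over all genes the shares called were 15.0% higher and 14.3% lower in the first pair and 16% and 14.8% in the second.

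The kinases that these phosphatases act on were also on the low side in pDC. Of 18 MAP kinase and MAPK kinase genes listed, 15 were matched and 13 were above background on each array. In pDC 7 of the 13 were lower and 0 higher than in CD11b+ cDC (median -1.0). Against CD8+ cDC 5 were lower and 0 higher in pDC (median -0.71, or -0.07 with spike-in scaling, where 2 were lower). Over all genes 14.3% were lower and 15.0% higher in the first pair, and 14.8% and 16% in the second. The medians over all genes were 0.01 and 0.00, the latter 0.65 with spike-in scaling. Mapk14, encoding p38 alpha, gave 50656 in pDC, 256302 in CD11b+ and 116282 in CD8+ cDC, which is 5.06-fold and 2.30-fold lower in pDC. Mapk11 (p38 beta) was 10.2-fold higher in CD11b+ cDC than in pDC, and Mapk13 (p38 delta) 7.27-fold higher in CD8+ cDC. Of the ERK feedback inhibitors of the Sprouty and Spred families, 2 of 7 were above background. Spred1 gave 926 in pDC, 5828 in CD11b+ and 3332 in CD8+ cDC, and Spred2 was 2.96-fold lower in pDC than in CD11b+ cDC, both in the order of Dusp6.

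**Figure D3:**
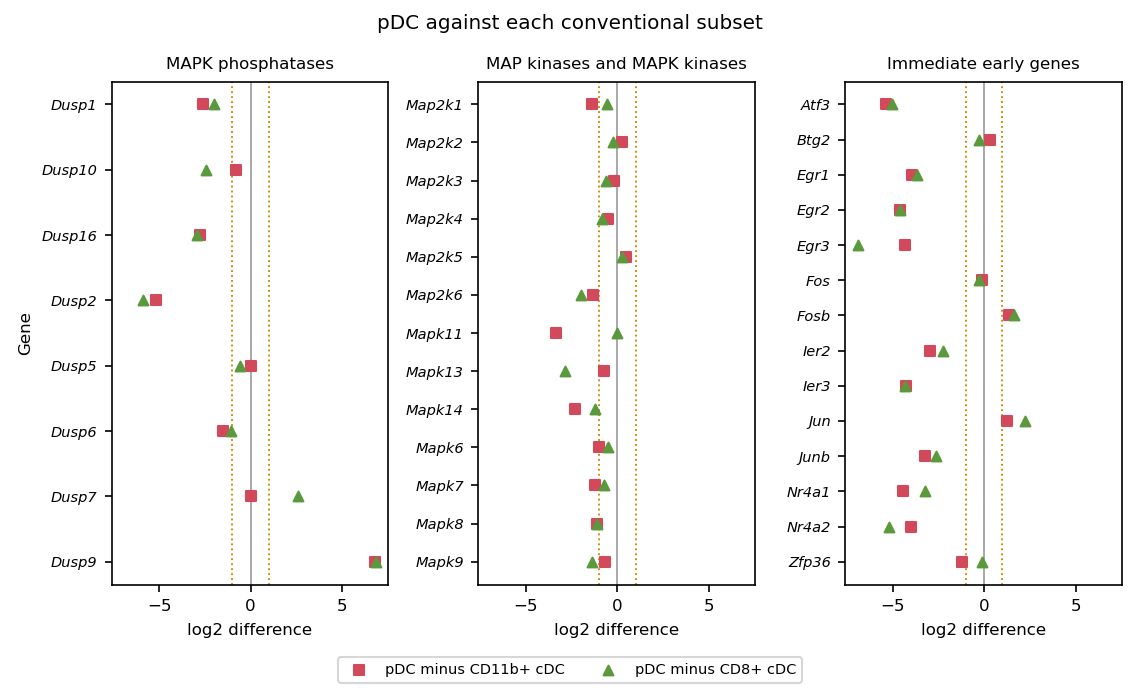
Log2 difference of pDC minus CD11b+ cDC (squares) and pDC minus CD8+ cDC (triangles) for the MAPK phosphatases, the MAP kinases with their kinases, and the immediate early genes above background. Dotted lines mark 2-fold and both differences share the pDC array. Among the phosphatases Dusp9 is farthest right at 6.83 and 6.85, and Dusp2 is farthest left at -5.15 and -5.86.

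Of 14 atypical dual-specificity phosphatases, which lack a kinase-binding domain, 6 were above background. Dusp22 (JKAP), which acts on Lck and JNK pathways, gave 8447 in pDC, 21391 in CD11b+ and 5744 in CD8+ cDC. CD11b+ cDC was the high subset, 2.53-fold over pDC and 3.72-fold over CD8+ cDC. Dusp3 (VHR) gave 568 in pDC, 815 in CD11b+ and 2938 in CD8+ cDC. CD8+ cDC was high, 5.18-fold over pDC and 3.61-fold over CD11b+ cDC, with 2.45-fold and 2.38-fold at the second probe set, but under 2-fold between the cDC with spike-in scaling. Dusp28 was dim, at 388 in pDC, 147 in CD11b+ and 156 in CD8+ cDC, and its calls of 2.65-fold and 2.49-fold ended when the background level was doubled. Dusp11, an RNA phosphatase, Dusp12 and Dusp19 stayed within 1.56-fold, but with spike-in scaling Dusp19 was 2.43-fold higher in pDC and 2.30-fold higher in CD11b+ cDC than in CD8+ cDC.

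On the deposited scale 13 of the 36 members did not reach 2-fold in any pair, with largest ratios from at least 1.04-fold (Ptprg) to 1.87-fold (Ptpra). Of these, Ptprc, Ptpn21 and Dusp19 reached it with spike-in scaling, and Ptpn2 and Ptprc with another choice of probe set. The other 22 members were below background at the probe set taken on all 3 arrays, and all of their 48 probe sets lay between 32.4 and 101. They were Ptprd, Ptprk, Ptpru, Ptprv, Ptprz1, Ptprr, Ptprn and Ptprn2 among receptors, Ptpn5, Ptpn13, Ptpn14 and Ptpn20 among cytosolic forms, and Dusp4, Dusp8, Dusp13, Dusp14, Dusp15, Dusp18, Dusp21, Dusp23, Dusp26 and Dusp27. Many of them are known from epithelium, nerve, muscle or endocrine cells.

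Summed signals of neutrophil and macrophage markers were highest on the CD11b+ cDC array, the one on which the called members Ptpro, Ptpn3, Ptpn6, Ptpn12, Ptpn22, Ptpre, Dusp1, Dusp6 and Dusp22 were brightest. All but Mmp8 of the 7 neutrophil markers were above background on each array, with summed signals of 2486 in pDC, 16429 in CD11b+ and 1354 in CD8+ cDC. All 8 macrophage markers were above background throughout, with sums of 35417, 161027 and 87753. Adgre1 (F4/80) was 70516 in CD11b+ cDC, 2641 in pDC and 3196 in CD8+ cDC, whereas Vcam1 and Spic were highest in CD8+ cDC (68203 and 1975) and Fcgr1 was at 358, 352 and 359. The part of such cells in the phosphatase differences was not tested.

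Probe sets of the same gene were compared within the arrays. For pDC against CD11b+ cDC, 7 called members had further probe sets above background, and 10 of these 11 probe sets made the same call, 1 made none and 0 the opposite. For pDC against CD8+ cDC it was 11 of 16, with 5 making no call and 0 opposite, and between the cDC 7 of 7. Where the dimmer array lay below background, as for Ptprf in CD11b+ cDC, each probe set gave only a lower bound, so their sizes could not be compared. A probe set above background only on the array where its gene was bright, as for Ptprf, could not make the opposite call. Probe sets below background on both arrays of a pair, such as the dimmer ones of Ptprs, were not counted. The counts are therefore no error rate.

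**Figure D4:**
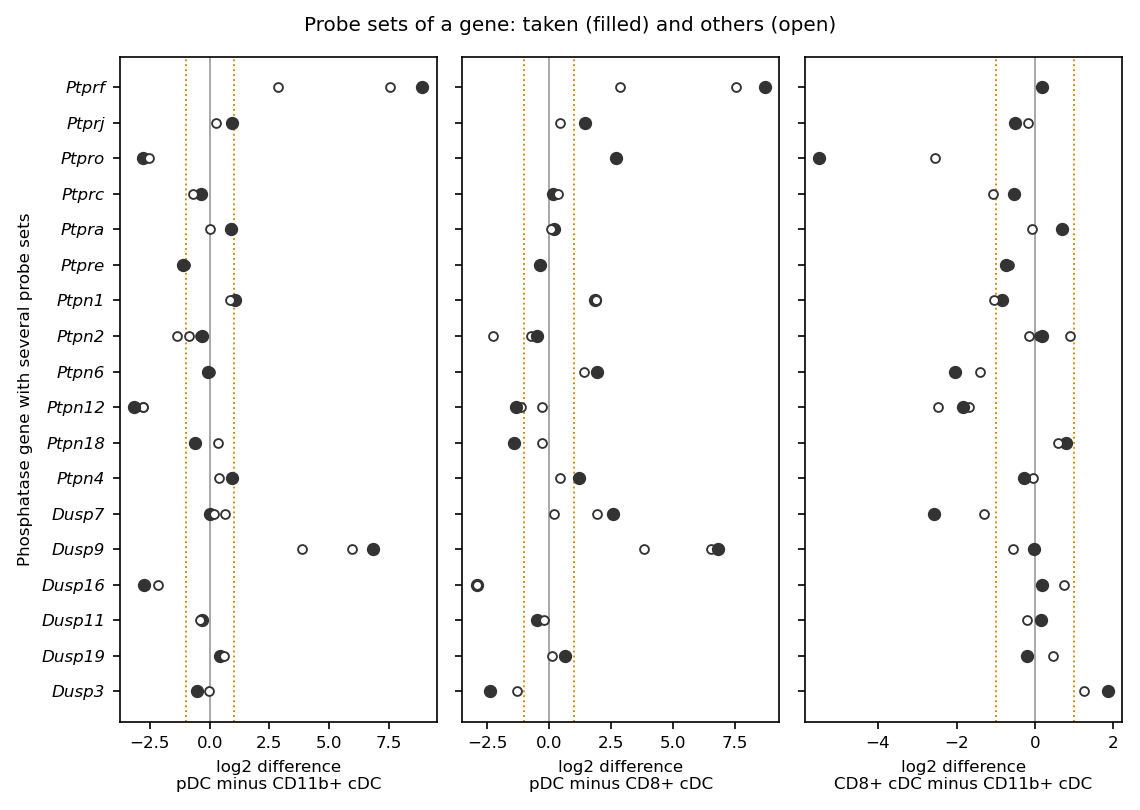
Log2 difference between arrays for each probe set above background of the phosphatase genes with several such probe sets, with the probe set used in the text filled, the others open and dotted lines at 2-fold. In Ptprf, Dusp9, Ptpn12 and Dusp16 all probe sets lie on the same side of 0 in both comparisons with pDC, and the Ptprf values against CD11b+ cDC, from 2.87 to 8.90, are lower bounds.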

How the data were processed

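Total RNA of 3 sorted subsets was hybridised to 1 Affymetrix mouse array each, after amplification from 20 ng, per the labels' protocols. The authors deposited 1 linear intensity for each of 45101 probe sets and array, and the submitters' processing notes name MAS5. Any scaling beyond this is not given in the sources at hand. The sorted values of each array lay on average 0.01 (log2) from those of the 3-array mean, and 1063 to 1073 values per array exceeded 65535, the limit of a 16-bit reading, so the values are on a rescaled axis.

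Probe sets were named by the platform annotation, and all 58 member symbols matched a RefSeq gene of GRCm38.p6 by gene number. Of several probe sets of a gene, the one brightest on average (log2) stood for it. The background level of 111 was the 95th percentile over 87 probe sets of odorant, pheromone, trace amine or taste receptors, on the array where it was highest (5 of the 87 exceeded it on at least 1 array). Lower values were set to it before log2. Genes above it on either array of a pair entered that comparison, and 2-fold was the call. With 1 array per subset no test was possible, and the number of arrays limits the precision. The calling code was run on simulated arrays with planted shifts larger than 2-fold, in genes well above background. As the rule must find such shifts, this checked the code alone. It gives no error rate for calls near 2-fold or near background. Members and lists were chosen with earlier results of these data known. Members were described by value if called in any pair, or if Ptprc, Ptpn6, Ptpn11, Ptpn1, Ptpn2 or Ptpn22, and of each other list up to 4 genes per direction and pair with the largest differences. Of 105 entries in 7 lists (6 pathway lists and the immediate early genes), 94 were matched and the rest not analysed here. Work was done in Python 3.11.15 with pandas 2.3.3 and numpy 2.4.6.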

Additional observations from a re-analysis of the deposited data

How the results depend on the processing

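The 46 calls of phosphatase genes over the 3 pairs were recomputed under 7 alternatives that keep the 2-fold rule, and 31 held in all of them (14 of pDC against CD11b+ cDC, 11 of pDC against CD8+ cDC and 6 between the cDC). Of the called differences none changed sign in these 7, which a single array per subset does not turn into a measure of biological error. Scaling on 18 hybridization spike-in probe sets had the widest effect. It left 6 members lower in pDC than in CD8+ cDC, and gave 0 higher and 16 lower in CD8+ than in CD11b+ cDC, with 4 members at 4-fold in CD11b+ cDC. Over all genes it moved the share of calls on the pDC side from 51.2% to 34.7% against CD11b+ cDC and from 51.9% to 77.6% against CD8+ cDC, and on the CD8+ side between the cDC from 49.0% to 7.82%. For the 6 pathway lists it gave 5 higher and 34 lower in CD8+ than in CD11b+ cDC, against 9 and 19 on the deposited scale. Averaging all probe sets of a gene left 1 member higher in CD8+ than in CD11b+ cDC and ended calls of Ptprs, Ptprj, Ptpn4 and Ptpn18 between pDC and CD8+ cDC, with 2 in place of 3 members at 4-fold in pDC. At 1.5-fold, 8 members were higher in pDC than in CD11b+ cDC and 7 higher in CD8+ than in CD11b+ cDC. At 3-fold, 3 were higher and 7 lower in pDC than in CD11b+ cDC, and 6 were lower in pDC than in CD8+ cDC. Raising the background level to 222 or 412 ended calls of Dusp28 and, at 412, of Dusp7 alone, and adding 16 to the intensity in place of the floor ended 0. Leaving out probe sets that may match several transcripts ended the Ptpn1 call against CD11b+ cDC and added calls of Ptpn2, Ptpn1 and Ptprc. No paired analysis was possible because each subset has 1 array.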

Other observations

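Phosphatases outside the Ptpn, Ptpr and Dusp series were read as a list of 22, of which 20 were matched and 16 were above background on at least 1 array. In pDC 3 were higher and 6 lower than in CD11b+ cDC (median -0.68), and 4 higher and 6 lower than in CD8+ cDC (median -0.73, or -0.09 with spike-in scaling). Between the cDC 3 were higher and 3 lower in CD8+ cDC, or 0 and 7 with spike-in scaling. All genes gave 15.0% higher and 14.3% lower, 16% and 14.8%, and 9.84% and 10.3%, in the same order of pairs. The medians over all genes in the pairs with pDC were 0.01 and 0.00, the latter 0.65 with spike-in scaling. Cdc14b, of a family that acts on cyclin-dependent kinase substrates, gave 20463 in pDC, 418 in CD11b+ and 914 in CD8+ cDC, and was 48.9-fold and 22.4-fold higher in pDC. Cdc14a was lowest in pDC, with 17728 in pDC, 51446 in CD11b+ and 92316 in CD8+ cDC. Eya1, a tyrosine phosphatase and transcription cofactor, gave 5911 in pDC, 312 in CD11b+ and 114 in CD8+ cDC. Ptp4a3 (PRL-3) was also brightest in pDC, at 25728, with 12216 in CD11b+ cDC and 3293 in CD8+ cDC.

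Of the cell cycle phosphatases, Cdc25b, Cdc25c and Cdkn3 were lower in pDC than in both cDC. Cdc25c, which activates the mitotic kinase, was below background in pDC and gave 458 in CD11b+ cDC and 768 in CD8+ cDC. Cdkn3, which acts on cyclin-dependent kinases, was likewise below background in pDC, at least 2.49-fold and at least 8.65-fold lower than in CD11b+ and CD8+ cDC. Cdc25b gave 172 in pDC, 1515 in CD11b+ and 986 in CD8+ cDC. Ssh2, a cofilin phosphatase of the slingshot family, was lowest in CD8+ cDC, at 3691, with 11811 in pDC and 21097 in CD11b+ cDC, an order like that of Ptpn6 and Dusp7 in having CD8+ cDC as the low subset.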
